A study of Homo sapiens with 6 samples.

Results

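Cornified envelope and S100 genes encode the proteins that a squamous cell makes as it matures toward a dead, protective shell. A set of 48 such genes was followed in HCC2814 cells, a human lung squamous cell carcinoma (LUSC) line, by RNA-seq. The genes were matched by symbol among the 17448 genes of the expression table, and all 48 were listed. They cover envelope precursors, the enzymes that crosslink them, calmodulin-like proteins, corneodesmosin and kallikreins, protease inhibitors, barrier lipid enzymes, S100 proteins, and the differentiation proteins LYPD3 and SFN. Keratins were not part of the set.

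WT cells received a non-targeting guide (sgCtrl), and MLST8-KO cells received a CRISPR guide against MLST8, a subunit shared by the kinase complexes mTORC2 and mTORC1. Both groups were the same parental line, grown in the same serum-containing medium and selected with an antibiotic after the guide was delivered in a lentiviral vector. Each group had 3 samples from independent experiments (n = 3 throughout). Whether the MLST8-KO cells were a clone or a pool was not given in the sources used here. The comparison asks which of these genes changed in LUSC cells when mTORC2 was targeted.

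In a stratified squamous epithelium, basal cells divide and the cells above them differentiate. Involucrin, the small proline-rich (SPRR) proteins, loricrin and filaggrin accumulate there, transglutaminases join them into an insoluble layer under the membrane, lipids are attached to its outer face, and kallikrein proteases later cut the junctions that hold dead cells together. Protease inhibitors of the serpin, cystatin, elafin and SPINK families limit those cuts. S100 proteins are small calcium-binding proteins, and many of their genes lie among the envelope genes in 1 cluster on chromosome 1, the epidermal differentiation complex. LUSC tumors often express parts of this program.

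Estimated counts summed to between 14381673 and 15744154 per library, and 3 counts, the limit that a count of 0 allows, corresponded to 0.185 to 0.216 CPM, the count scaled by library size. This limit covers counting error only. MLST8 itself had 874, 827 and 842 counts in WT 1, 2 and 3 and 396, 629 and 401 in MLST8-KO 1, 2 and 3, a log2 fold change of -0.96 ± 0.15 (SE, adjusted p = 0.0034, edgeR's quasi-likelihood test). Of 12 squamous epithelium markers fixed as a list, 10 rose in MLST8-KO cells, among them TP63 (log2 fold change 0.47, adjusted p = 0.0211), SOX2 (1.55, 0.0057) and KRT14 (0.87, 0.00509), while EPCAM and CDH1 did not pass the test. That is 83.3% of the list, beside 16.3% of all genes tested. WT 1 was the highest WT library for all 12 and WT 3 the lowest for 11, so these calls are not independent of each other. NKX2-1, a lung lineage factor, rose from 59, 40 and 24 counts to 166, 163 and 138 (log2 fold change 1.81, adjusted p = 0.00281), and surfactant genes stayed at 0 to 8 counts. Library MLST8-KO 1 stood apart by liver transcripts: FGA had 1083 counts there and 2 to 30 in the other libraries. Of 12 liver markers, 3 had enough counts to be tested, and these 3 passed as higher by edgeR. For 0 of the 3 did every MLST8-KO library lie above every WT library, and DESeq2 called 0 higher. The counts of changed genes were therefore also taken without it. In bulk RNA, fewer cells of a type and less RNA per cell cannot be told apart.

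Levels were compared between genes in TPM, which is scaled by gene length. SFN, which encodes the cell cycle regulator 14-3-3 sigma, was highest with a mean TPM of 2280 ± 235 in WT and 2000 ± 227 in MLST8-KO cells (SD). S100A2, an S100 gene of basal and squamous cells, followed with 1220 ± 165 and 1190 ± 137 TPM, and the neighbouring pair SFN and S100A2 did not overlap in any library. Next came S100A16 (935 ± 31.2 and 730 ± 62.3 TPM), the elafin gene PI3 (767 ± 140 and 408 ± 51.6 TPM) and the cystatin gene CSTB (556 ± 58.1 and 561 ± 25.4 TPM). CALML3 and S100A14 had means of 542 and 430 TPM over all libraries. PI3, CSTB and CALML3 ranged over each other's levels across the 6 libraries, so their order was not separated from the spread.

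The late structural proteins of skin were at the other end. Loricrin (LOR) had 0 to 4 counts in the 6 libraries, FLG2 0 to 2, and CALML5 0 to 3. Filaggrin (FLG) had 7 to 20 counts, which over its long transcript was 0.07 to 0.19 TPM. In contrast, involucrin (IVL) had 98 to 187 counts and 6.14 to 11.4 TPM, and SPRR2D had a mean of 232 TPM. In all, 12 of the 48 genes had a mean of at least 100 TPM and 12 a mean under 1 TPM. The line thus made transcripts of some SPRR, S100 and inhibitor genes but hardly any loricrin or filaggrin. Not every gene of those families was expressed, as the inhibitor gene SERPINB4 had a mean of 0.065 TPM.

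**Figure D1:**
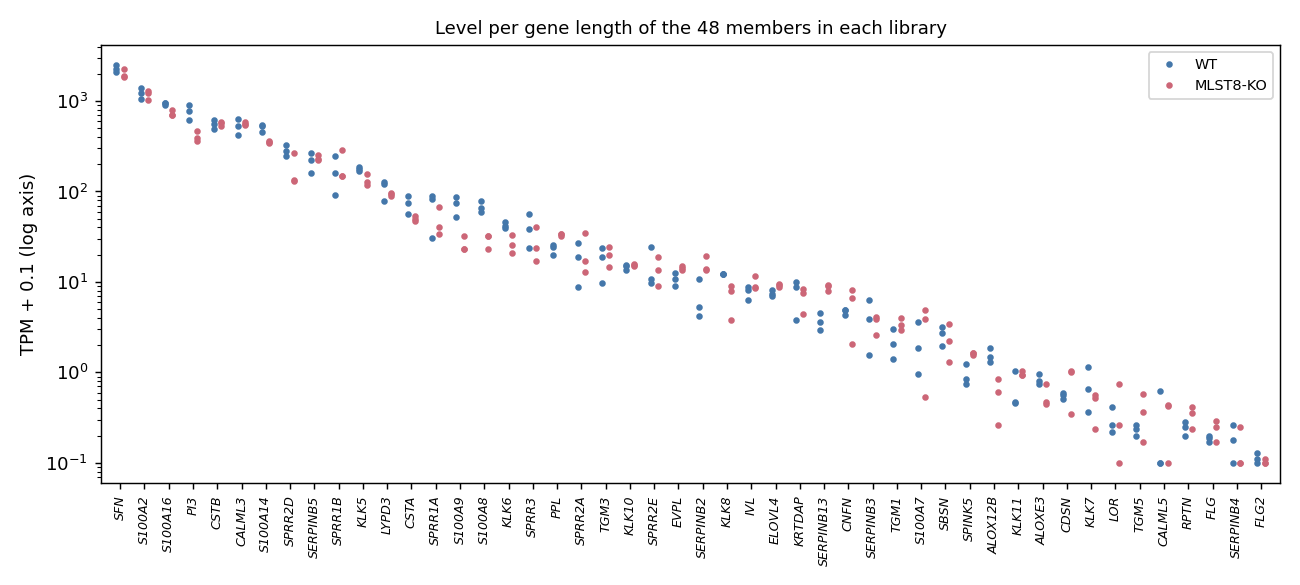
Level of each of the 48 genes in each library, in TPM with 0.1 added so that 0 can be drawn on a log axis, ordered by mean level. Each point is 1 library, blue for WT and red for MLST8-KO. SFN and S100A2 lie at the left above 1000 TPM, and LOR, FLG, FLG2 and SERPINB4 at the right under 1 TPM.

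Of the 48 genes, 38 had enough counts to be tested, and 10 did not (LOR, FLG2, RPTN, TGM5, CALML5, CDSN, KLK7, KLK11, SERPINB4 and S100A7). DEGs were genes with a Benjamini-Hochberg adjusted p under 0.05 over all 12951 genes tested. In MLST8-KO cells, 4 of the 38 rose (10.5%) and 11 fell (28.9%). The background over all genes tested was 16.3% higher and 15.7% lower. With DESeq2, the method of the study, 3 of 40 rose and 11 fell, beside 13.9% and 15.1% of all genes. Every MLST8-KO library lay above every WT library for 4 of the 38 (10.5%) and below for 12 (31.6%), while this held for 24.8% and 24.2% of all genes. The median log2 fold change of the 38 was -0.18, beside 0.00 over all genes. Without MLST8-KO 1, the library with liver transcripts, 3 of 39 rose and 8 fell, where 7.49% and 6.5% of the 13071 genes tested in that fit did.

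The rises were SERPINB13, SERPINB2, SPINK5 and PPL. The falls were ALOX12B, S100A9, S100A8, PI3, KLK8, SPRR2D, KLK6, CSTA, S100A14, KLK5 and S100A16. By role, 3 of 6 protease inhibitors rose and 1 fell. Among kallikreins 3 of 4 fell, and among S100 genes 4 of 5 fell. Of the 15 envelope precursors tested, 12 did not pass the test. Summed over all 48 genes, TPM was 8970, 8620 and 7220 in WT 1, 2 and 3 and 6800, 7170 and 7150 in MLST8-KO 1, 2 and 3. WT 3 thus lay just above MLST8-KO 2. The summed level of the 12 squamous epithelium markers went the other way, with 12400 to 19700 TPM in WT and 24900 to 27800 in MLST8-KO libraries. Such sums are weighted toward the most abundant genes. In the set these are SFN and S100A2, neither of which passed the test.

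**Figure D2:**
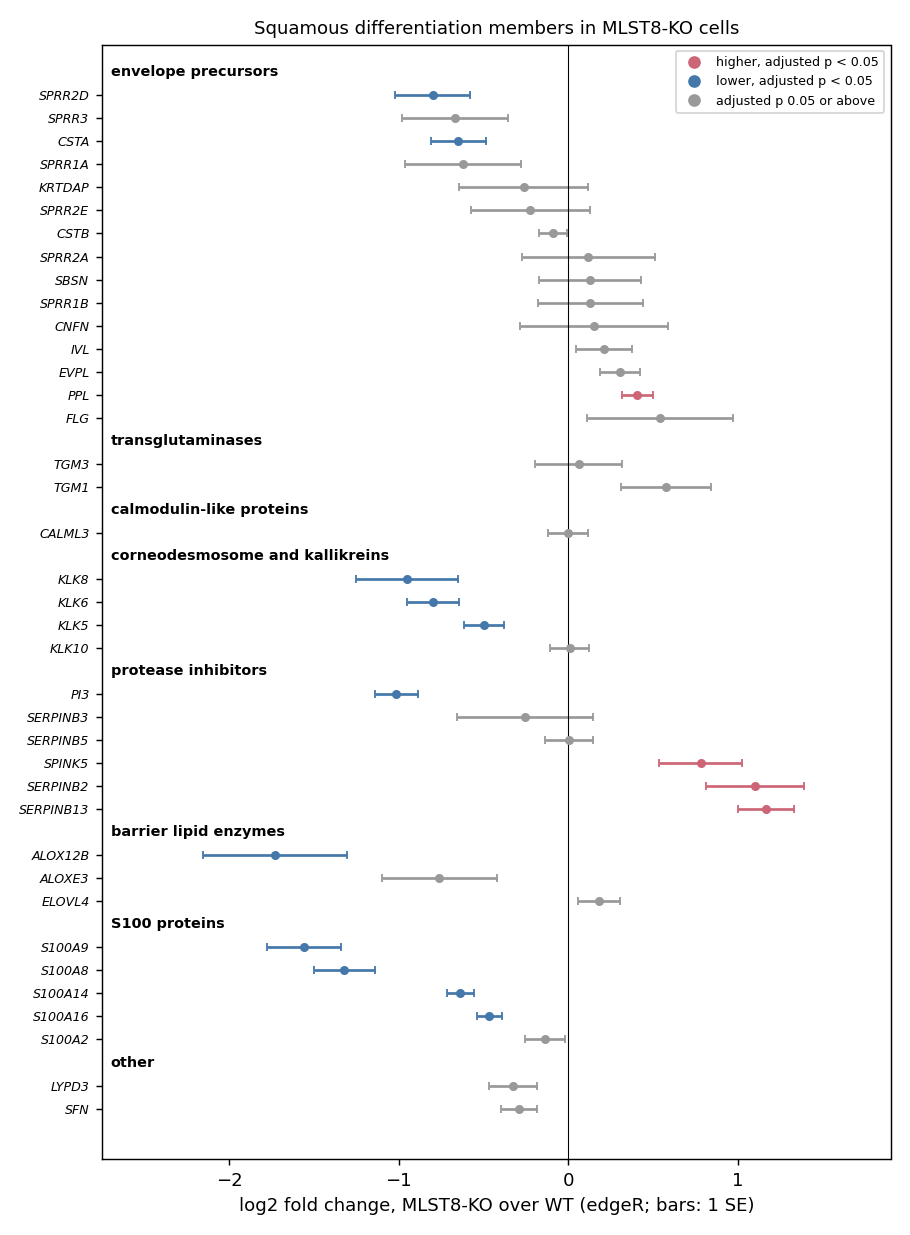
Log2 fold change of the 38 tested genes in MLST8-KO over WT cells, grouped by role. Points are edgeR estimates and bars are 1 SE, with red for genes that rose, blue for genes that fell and grey for an adjusted p of 0.05 or above. Values run from -1.73 for ALOX12B to 1.17 for SERPINB13.

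Of the 15 envelope precursors tested, 1 rose, 2 fell and 12 did not pass the test. Periplakin (PPL), a plakin that ties the envelope to keratin filaments, rose. It was at 86.6, 82.4 and 69.3 CPM in WT and 107, 105 and 104 in MLST8-KO libraries (chr16:4882507-4960741, GRCh38). The groups did not overlap, the MLST8-KO libraries lay within 1.02-fold of each other, and the change was 1.33-fold (log2 fold change 0.41 ± 0.09, adjusted p = 0.0107). Its partner envoplakin (EVPL) had 44.8, 37.7 and 33.6 against 47.0, 43.8 and 52.8 CPM. Its groups overlapped, and its log2 fold change of 0.30 ± 0.12 did not pass the test (adjusted p = 0.0701), though without WT 1 it did (0.42, adjusted p = 0.00828).

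Cystatin A (CSTA), a cysteine protease inhibitor that is built into the envelope, fell. Its levels were 20.8, 33.4 and 28.8 CPM in WT and 19.1, 16.1 and 17.7 in MLST8-KO libraries (chr3:122325244-122341972). WT 1 lay just above the highest MLST8-KO library, and the mean was 1.57-fold lower (log2 fold change -0.65 ± 0.16, adjusted p = 0.0142). The call was lost without WT 2 (-0.50, adjusted p = 0.0667) or without MLST8-KO 2 (-0.59, adjusted p = 0.0632). Cystatin B (CSTB), its ubiquitous relative, had a log2 fold change of -0.09 ± 0.08 (adjusted p = 0.411). Involucrin, the early scaffold of the envelope, had 9.68, 8.88 and 7.07 against 8.84, 11.6 and 9.35 CPM, overlapping groups and a log2 fold change of 0.21 ± 0.17 (adjusted p = 0.34). FLG, CNFN, SBSN and KRTDAP were read from 6 to 38 counts a library, and their log2 fold changes of 0.54, 0.15, 0.13 and -0.26 carried SEs of 0.30 to 0.44. Changes of these sizes could not be detected with these counts and SEs.

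The SPRR genes encode short, proline-rich crosslinking proteins. The coding sequences of SPRR2A, SPRR2D and SPRR2E are printed because they are nearly alike. They are from the GENCODE annotation of GRCh38, each 219 bases long, with capitals at the 6 positions where the sequences are not all alike:
SPRR2A: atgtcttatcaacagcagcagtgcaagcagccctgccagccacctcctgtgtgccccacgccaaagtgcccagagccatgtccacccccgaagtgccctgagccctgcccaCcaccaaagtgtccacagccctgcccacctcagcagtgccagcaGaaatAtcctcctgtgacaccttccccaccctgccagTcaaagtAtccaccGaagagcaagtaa
SPRR2D: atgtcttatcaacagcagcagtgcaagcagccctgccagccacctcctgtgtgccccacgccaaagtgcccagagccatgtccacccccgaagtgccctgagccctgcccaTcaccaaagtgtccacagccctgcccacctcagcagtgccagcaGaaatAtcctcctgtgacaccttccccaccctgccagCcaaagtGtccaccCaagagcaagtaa
SPRR2E: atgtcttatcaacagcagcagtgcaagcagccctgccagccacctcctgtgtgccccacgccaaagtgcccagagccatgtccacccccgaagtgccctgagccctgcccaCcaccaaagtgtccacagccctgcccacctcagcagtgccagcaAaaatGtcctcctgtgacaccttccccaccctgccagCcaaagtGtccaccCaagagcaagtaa
SPRR2A and SPRR2D share 98.2% of these bases and SPRR2D and SPRR2E 98.6%, and the longest identical run between SPRR2A and SPRR2E is 155 bases. SPRR1A and SPRR1B, each 270 bases long, are 96.3% identical. Estimated counts of the SPRR2 genes were whole in some libraries (1213 for SPRR2D in WT 2). In others they were not (1414.08 for SPRR2D in WT 1 and 54.43 for SPRR2A in MLST8-KO 1). Only coding sequences were compared, so how well reads separate the SPRR2 paralogs was not tested. The value of each paralog taken alone is uncertain to that extent.

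SPRR2D (chr1:153039725-153041931) fell. It had 93.8, 83.5 and 75.4 CPM in WT and 36.8, 71.0 and 37.1 in MLST8-KO libraries. The groups were separated only narrowly, by WT 3 and MLST8-KO 2, and the mean was 1.74-fold lower (log2 fold change -0.80 ± 0.22, adjusted p = 0.0209). DESeq2 gave an adjusted p of 0.0505, and the edgeR call was lost without WT 2 (-0.81, adjusted p = 0.0593), MLST8-KO 1 (-0.64, 0.0823) or MLST8-KO 3 (-0.64, 0.085). The other SPRR genes did not pass the test: SPRR3 had a log2 fold change of -0.67 ± 0.31, SPRR1A -0.62 ± 0.34, SPRR2E -0.22 ± 0.35, SPRR2A 0.12 ± 0.39 and SPRR1B 0.13 ± 0.31. Without WT 3, SPRR1A (-0.96, adjusted p = 0.00471) and SPRR3 (-0.91, adjusted p = 0.0189) did pass.

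The SPRR genes varied between libraries of 1 group. WT 1 was the highest WT library and WT 3 the lowest for 6 of 6 SPRR genes, and MLST8-KO 2 was the highest MLST8-KO library for 6 of 6. SPRR1B, for example, had 62.2, 41.2 and 24.4 CPM in WT and 37.0, 67.0 and 35.9 in MLST8-KO libraries, a wider range within each group than between the means of 42.6 and 46.6. Summed SPRR TPM was 775, 592 and 412 in WT and 372, 717 and 356 in MLST8-KO libraries, so that MLST8-KO 2 exceeded WT 2 and WT 3. The median ratio of highest to lowest library was 2.48 within WT and 1.95 within MLST8-KO for the SPRR genes, against 1.21 and 1.17 for all genes tested. SPRR2D varied least of the 6 within WT (1.24-fold), and genes of the set outside the SPRR family varied as widely with the same order, among them TGM3 (2.32-fold within WT), TGM1 (2.21-fold), KRTDAP (2.48-fold) and SERPINB2 (2.52-fold). The order within WT was shared more widely still: WT 3 was lowest for 26 of the 38 tested genes of the set (68.4%, against 39.2% of all genes), and also for 11 of the 12 squamous epithelium markers, of which WT 1 was highest for 12. In MLST8-KO cells, in contrast, MLST8-KO 2 was highest for 3 of the 12 markers. The part of this spread in the comparison was not tested beyond leaving out each library.

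**Figure D3:**
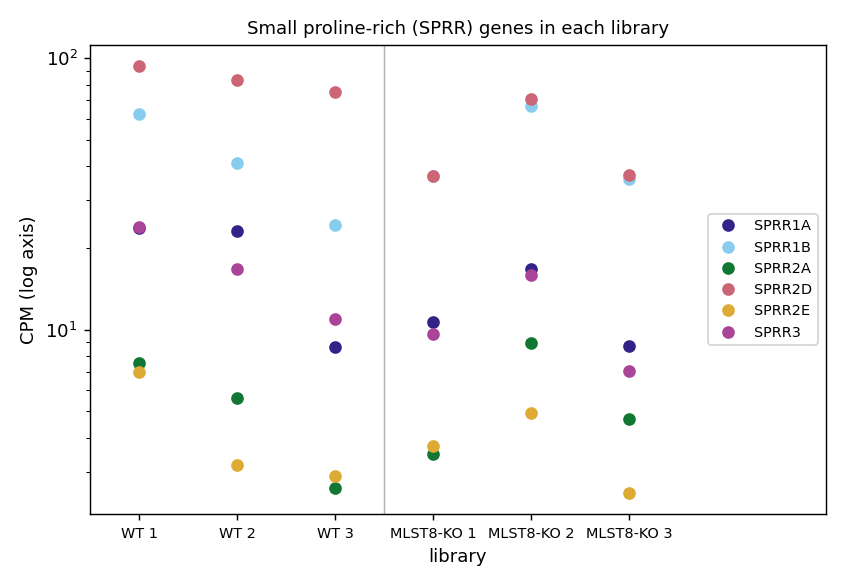
Level of the 6 SPRR genes in each library, in CPM on a log axis, with WT libraries left of the line and MLST8-KO libraries right of it. Each color is 1 gene. WT 1 is highest and WT 3 lowest among WT libraries in every gene, and MLST8-KO 2 is highest among MLST8-KO libraries.

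Transglutaminases crosslink the precursors. TGM3 was the most abundant of the 3, at 32.8, 26.2 and 14.1 CPM in WT and 25.6, 30.8 and 19.9 in MLST8-KO libraries, with fully overlapping groups (log2 fold change 0.06 ± 0.26, adjusted p = 0.871). TGM1, the membrane-bound enzyme, had 65, 41 and 27 against 69, 83 and 63 counts. Its log2 fold change of 0.58 ± 0.26 did not pass the test (adjusted p = 0.118), and without WT 1 it was 0.92 (adjusted p = 0.00928). TGM5 had 1 to 7 counts. Neither TGM1 nor TGM3 nor CALML3 passed the test by edgeR or DESeq2 or reached an unadjusted p under 0.05. The calcium-binding CALML3 was at 423, 357 and 296 CPM in WT and 345, 347 and 382 in MLST8-KO libraries (log2 fold change 0.00 ± 0.12, adjusted p = 0.99).

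Kallikreins are secreted serine proteases, and KLK5 is the best known for cutting the junctions between dead squamous cells. KLK5 (chr19:50943303-50953093) had 129, 118 and 130 CPM in WT and 83.5, 76.7 and 106 in MLST8-KO libraries. All MLST8-KO libraries lay below all WT libraries, and the mean was 1.41-fold lower (log2 fold change -0.50 ± 0.12, adjusted p = 0.0117). KLK6 (chr19:50958631-50969673) fell from 33.7, 28.1 and 31.4 to 14.3, 16.9 and 22.4 CPM. Its groups did not overlap either (1.74-fold lower, log2 fold change -0.80 ± 0.15, adjusted p = 0.00589). KLK8 (chr19:50996007-51002711) fell from 67, 59 and 65 to 42, 18 and 47 counts, with MLST8-KO 2 the lowest library (log2 fold change -0.95 ± 0.30, adjusted p = 0.0358). KLK8 shares exons with a read-through transcript annotated on the same strand, so its value is uncertain. In contrast KLK10, in the same cluster, had 165 to 184 counts in WT and 190 to 195 in MLST8-KO libraries (log2 fold change 0.01 ± 0.12, adjusted p = 0.969). KLK7 and KLK11 had 2 to 15 counts, and corneodesmosin (CDSN), which the proteases cut, 5 to 19.

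The KLK6 call held when any library was left out. KLK5 lost its call without MLST8-KO 1 (-0.46, adjusted p = 0.0568) or MLST8-KO 2 (-0.40, adjusted p = 0.0514). KLK8 lost it without WT 2, WT 3, MLST8-KO 1 or MLST8-KO 2, with log2 fold changes of -1.01, -0.91, -1.10 and -0.62 and adjusted p of 0.0826, 0.0542, 0.0665 and 0.0693. Both KLK5 and KLK6 overlap an annotated antisense gene, and whether the libraries kept strand was not given in the sources used here.

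Protease inhibitors went both ways. SERPINB13, a serpin of stratified epithelia that inhibits cathepsins, rose from 112, 86 and 67 counts in WT to 224, 223 and 199 in MLST8-KO libraries (chr18:63586989-63604639). The lowest MLST8-KO library was 12.7 CPM and the highest WT library 7.43 CPM, and the change was 2.25-fold (log2 fold change 1.17 ± 0.16, adjusted p = 0.00281). SERPINB2, the plasminogen activator inhibitor 2, rose from 10.5, 5.03 and 4.18 to 12.6, 17.2 and 12.8 CPM (chr18:63871692-63903890). WT 1 came close to the MLST8-KO libraries, and the mean was 2.15-fold higher (log2 fold change 1.10 ± 0.29, adjusted p = 0.0181). The SERPINB2 call was lost without WT 2 (0.93, adjusted p = 0.0783) or MLST8-KO 2 (0.94, adjusted p = 0.0806), and without WT 1 the log2 fold change was 1.62. SERPINB2 also overlaps SERPINB10 on the same strand, so reads in the shared stretch could count for either. SPINK5, which encodes LEKTI, an inhibitor of kallikreins, had 22, 30 and 18 counts in WT and 44, 41 and 46 in MLST8-KO libraries (chr5:148025683-148137289). These groups did not overlap (log2 fold change 0.78 ± 0.25, adjusted p = 0.035), but the level was low, about 1.18 TPM, and the call was lost with DESeq2 (0.78, adjusted p = 0.106). It was also lost without any library but WT 2, with log2 fold changes of 0.65 to 0.84 and adjusted p of 0.0619 to 0.103.

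Elafin (PI3), an inhibitor of elastase that is also crosslinked into the envelope, moved the other way. It had 2491, 2960 and 1988 counts in WT and 1301, 1503 and 1198 in MLST8-KO libraries (chr20:45174876-45176544). In CPM this was 165, 204 and 143 against 83.9, 92.8 and 76.7, so that the highest MLST8-KO library was well below the lowest WT library. The mean was 2.02-fold lower (log2 fold change -1.02 ± 0.13, adjusted p = 0.00281), and the log2 fold change ran from -1.13 to -0.87 as each library was left out. Maspin (SERPINB5), the most abundant serpin of the set, had 370, 306 and 232 CPM in WT and 289, 315 and 306 in MLST8-KO libraries (log2 fold change 0.00 ± 0.14, adjusted p = 0.987). SERPINB3, a squamous cell carcinoma antigen, had 19 to 82 counts and a log2 fold change of -0.26 ± 0.40. Its near copy SERPINB4, with 95.2% coding identity, had 0 to 2 counts. Reads shared by the pair would make both uncertain, but the counts of both were whole, and sharing was not tested.

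**Figure D4:**
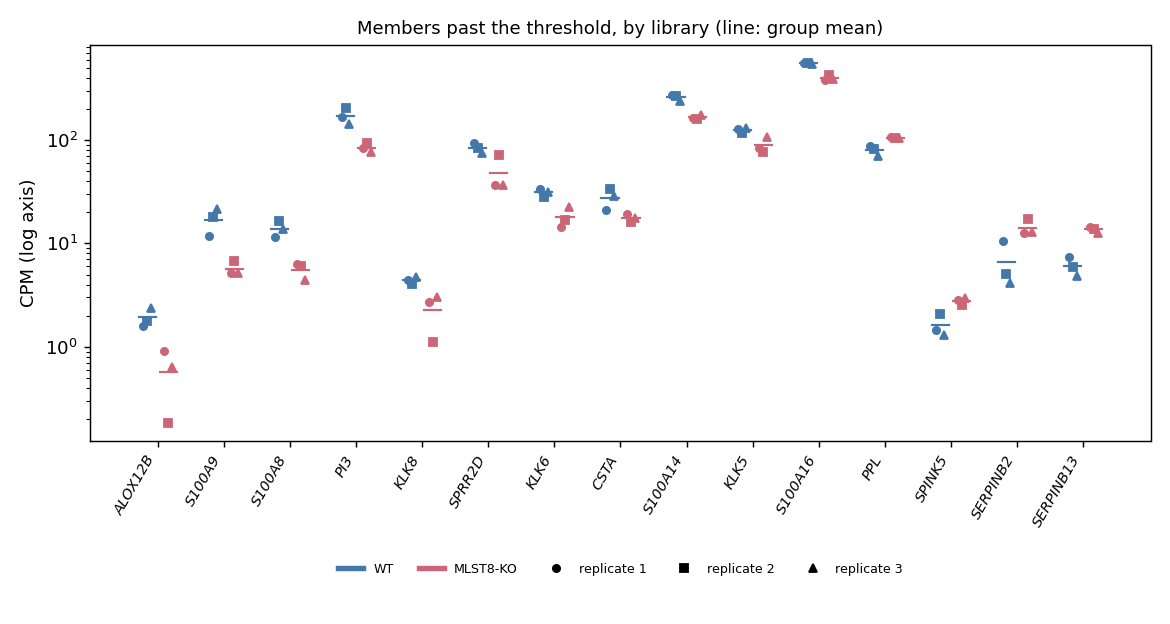
Level of the 15 genes past the threshold in each library, in CPM on a log axis, ordered from the largest fall to the largest rise. Blue marks are WT and red marks MLST8-KO libraries, the shape gives the replicate, and the line is the group mean. The red marks of PI3, S100A8, S100A9, S100A14 and S100A16 all lie below the blue ones, and those of PPL and SERPINB13 all lie above.

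The barrier lipid enzymes were read at low levels. ALOX12B, a lipoxygenase that oxidizes the ceramides of the lipid envelope, had 24, 26 and 33 counts in WT and 14, 3 and 10 in MLST8-KO libraries (chr17:8072636-8087716). No MLST8-KO library reached the lowest WT library, and MLST8-KO 2, with 3 counts, was at the detection limit. The mean was 3.31-fold lower (log2 fold change -1.73 ± 0.42, adjusted p = 0.0138), and without MLST8-KO 2 the log2 fold change was -1.30. An antisense gene is annotated over ALOX12B. ALOXE3, which acts on the product of ALOX12B, had 17, 16 and 20 against 8, 16 and 10 counts. Its CPM values were all lower in MLST8-KO libraries, but the log2 fold change of -0.76 ± 0.34 did not pass the test (adjusted p = 0.11). ELOVL4, an elongase of very long fatty acids, had a log2 fold change of 0.18 ± 0.12 (adjusted p = 0.282).

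Of the 5 S100 genes tested, 4 fell and none rose, while 15.7% of all genes tested fell and 16.3% rose. No S100 gene of the set rose at an unadjusted p under 0.05 in edgeR or with DESeq2. The kallikreins went the same way, with 3 of 4 lower and none higher by any of these measures. S100A8 and S100A9 encode the subunits of calprotectin, which neutrophils make in bulk and squamous cells make under stress. S100A8 (chr1:153390032-153391188) had 11.5, 16.3 and 13.9 CPM in WT and 6.26, 5.99 and 4.42 in MLST8-KO libraries. S100A9 (chr1:153357854-153361027) had 11.7, 17.8 and 21.3 against 5.16, 6.79 and 5.19 CPM. In both genes every MLST8-KO library was below every WT library. The means were 2.5-fold (log2 fold change -1.32 ± 0.18) and 2.95-fold lower (log2 fold change -1.56 ± 0.22), with the same adjusted p of 0.00281. As each library was left out, S100A8 ran from -1.44 to -1.18 and S100A9 from -1.77 to -1.37.

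Of the 10 myeloid and neutrophil markers fixed as a list, 7 were listed. PTPRC and CSF3R, the markers that define white blood cells and neutrophils, had 0 or 1 count in each library, CD14 had 1 to 4 and ITGAM 5 to 10. The summed level of the list, nearly all of it CD68, was 57.2 to 80.8 TPM in WT and 46.9 to 64.7 in MLST8-KO libraries, and CD68 fell (log2 fold change -0.45, adjusted p = 0.0413).

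S100A14 and S100A16, neighbours on chromosome 1, fell less and with little spread. S100A14 (chr1:153614255-153616986) had 270, 266 and 239 CPM in WT and 164, 160 and 175 in MLST8-KO libraries, 1.55-fold lower (log2 fold change -0.64 ± 0.08, adjusted p = 0.00281). S100A16 (chr1:153606886-153613145) had 550, 560 and 545 against 381, 427 and 391 CPM, 1.38-fold lower (log2 fold change -0.47 ± 0.08, adjusted p = 0.00364). For both, the gap between the groups was wider than the range within either. S100A2 did not pass the test, with 542, 624 and 490 CPM in WT and 549, 422 and 534 in MLST8-KO libraries (log2 fold change -0.14 ± 0.12, adjusted p = 0.393). Psoriasin (S100A7) had 1 to 11 counts, and its near copy S100A7A shares 96.1% of its coding bases.

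Of the remaining genes, SFN had 1630, 1460 and 1390 CPM in WT and 1120, 1120 and 1410 in MLST8-KO libraries. MLST8-KO 3 lay within the WT range, and the log2 fold change of -0.29 ± 0.11 did not pass the test (adjusted p = 0.0586). It did pass with DESeq2 (adjusted p = 0.0275), without WT 3 (-0.34, adjusted p = 0.0305) and without MLST8-KO 3 (-0.41, adjusted p = 0.0248). LYPD3, a surface protein of suprabasal squamous cells, had 109, 105 and 70.8 against 72.6, 76.1 and 78.8 CPM. WT 3 was its lowest library of all, and the log2 fold change of -0.33 ± 0.14 (adjusted p = 0.1) became -0.50 without WT 3 (adjusted p = 0.00151).

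Many of these genes sit in 3 clusters. The epidermal differentiation complex, taken from S100A10 to S100A1 (chr1:151982915-153632039), held 17 of the genes, of which 13 were tested, none rose and 5 fell (SPRR2D, S100A8, S100A9, S100A14 and S100A16). With DESeq2 none rose and 4 fell, and at an unadjusted p under 0.05 in edgeR none rose either. Of the 13 other genes tested there, 4 fell (S100A13, S100A6, S100A3 and PGLYRP4) and none rose by edgeR, by DESeq2 or at an unadjusted p under 0.05. The kallikrein cluster (chr19:50906352-51084245) held 6 of the genes, 4 tested and 3 lower, and the only other gene tested there, KLK9, was also lower (log2 fold change -0.83 ± 0.15, adjusted p = 0.00536). KLK9 shares exons with the same read-through transcript as KLK8. In the SERPINB cluster on chromosome 18 (chr18:63476761-64019779) 4 of the genes were tested and 2 rose, while SERPINB8 fell (log2 fold change -0.36 ± 0.09, adjusted p = 0.0127). Over all genes tested, 16.3% rose and 15.7% fell by edgeR, and 13.9% and 15.1% by DESeq2. Apart from SPRR2D and PGLYRP4, the genes that fell in the epidermal differentiation complex are S100 genes, which are also counted by family. IVL, FLG and the other SPRR genes there did not pass the test. These counts describe the clusters, and no test of position was made.

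Envelope genes are known targets of AP-1, the JUN and FOS factors, which bind TGANTCA. RefSeq promoter windows (GRCh38.p14), read here over the 250 bases before the start, were at hand for 38 of the 48 genes. The letters TGANTCA on either strand were found in 16 of their 48 windows (33.3%, some genes having several starts) and in 6.57% of all 35116 windows, and in 5 of 5 windows of IVL and the SPRR genes. TATAAA was found in 29.2% of the windows of the set and in 10.7% of all windows. The last 150 bases before the start are shown for 4 genes that hold TGANTCA there, 2 that rose and 2 that did not pass the test, with both motifs in capitals, read 5′ to 3′ on the gene's strand. They are IVL (chr1:152908396-152908545, plus strand), SPRR1A (chr1:152983931-152984080, plus strand), SERPINB2 (chr18:63887555-63887704, plus strand) and SERPINB13 (chr18:63587193-63587342, plus strand):
IVL: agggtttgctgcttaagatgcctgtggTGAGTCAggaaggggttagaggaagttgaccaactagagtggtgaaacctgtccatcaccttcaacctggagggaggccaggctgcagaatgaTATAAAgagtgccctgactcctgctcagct
SPRR1A: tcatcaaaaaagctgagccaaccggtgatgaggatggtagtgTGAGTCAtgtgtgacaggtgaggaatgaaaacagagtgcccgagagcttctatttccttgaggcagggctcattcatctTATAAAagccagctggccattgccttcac
SERPINB2: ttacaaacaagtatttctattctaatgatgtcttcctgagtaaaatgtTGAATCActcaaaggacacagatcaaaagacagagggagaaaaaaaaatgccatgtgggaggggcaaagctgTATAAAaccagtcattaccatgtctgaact
SERPINB13: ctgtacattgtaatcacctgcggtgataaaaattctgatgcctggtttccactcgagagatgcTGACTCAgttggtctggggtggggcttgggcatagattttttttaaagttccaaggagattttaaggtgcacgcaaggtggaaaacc
TGANTCA began 123, 108, 102 and 87 bases before the start in IVL, SPRR1A, SERPINB2 and SERPINB13. The windows of S100A8 (chr1:153391074-153391223, minus strand, 1 of 3 starts) and S100A9 (chr1:153357704-153357853, plus strand), which fell together, held TATAAA 29 bases before the start and no TGANTCA:
S100A8: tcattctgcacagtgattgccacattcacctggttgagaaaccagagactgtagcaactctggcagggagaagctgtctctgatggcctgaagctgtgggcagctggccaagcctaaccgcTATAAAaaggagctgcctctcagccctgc
S100A9: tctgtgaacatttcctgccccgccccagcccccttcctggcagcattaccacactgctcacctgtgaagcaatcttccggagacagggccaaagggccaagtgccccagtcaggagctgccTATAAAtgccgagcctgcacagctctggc
Of the 14 tested genes whose window held TGANTCA, 2 rose and none fell in the main edgeR test. SPRR1A and SPRR3, which hold the letters, were lower with the replicate number as a block (adjusted p = 0.0483 and 0.0386) and without WT 3, as was SFN with DESeq2 (adjusted p = 0.0275). Of the 15 whose window lacked the letters, 1 rose and 7 fell, beside 16.3% and 15.7% of all genes tested. Among the 15 DEGs of the set, CSTA, KLK8, PI3, PPL and SPRR2D had no window here. A match is only a match of letters, and no test was made of its relation to the changes.

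The other genes of the same program were read from a list of 103 written by hand, of which 80 were listed and 47 tested. Among these, 6 rose (12.8%) and 10 fell (21.3%), and none of the 7 tested late cornified envelope and fused-type genes passed the threshold, at an unadjusted p under 0.05 or with DESeq2. With DESeq2, 8 of 53 rose and 11 fell, where 13.9% and 15.1% of all genes did. Without MLST8-KO 1, edgeR gave 3 and 6 of 47, beside 7.49% and 6.5% of all genes in that fit. S100 genes outside the set also fell where they changed: 3 of 7 fell, and none rose by either tool or at an unadjusted p under 0.05. S100A6, with a mean of 1400 TPM, had a log2 fold change of -0.61 ± 0.12 (adjusted p = 0.0057), S100A3 -0.54 ± 0.15 (adjusted p = 0.0234) and S100A13 -0.37 ± 0.10 (adjusted p = 0.0231). S100A3 lost its call with DESeq2 (adjusted p = 0.0712), and in edgeR without WT 2 or any MLST8-KO library (0.0608 to 0.0786). S100A13 lost it in edgeR without WT 2, MLST8-KO 2 or MLST8-KO 3 (adjusted p 0.0603 to 0.0867). It also overlaps S100A1 on the opposite strand. S100A10 (0.01 ± 0.11) and S100A11 (-0.24 ± 0.08, adjusted p = 0.0541) did not pass. Over all S100 genes tested, in and outside the set, 7 of 12 fell.

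In this list, PRSS8 and STS passed the threshold with a change of at least 2-fold. PRSS8, the channel-activating protease prostasin, fell from 521, 583 and 874 counts in WT to 310, 303 and 297 in MLST8-KO libraries (log2 fold change -1.25 ± 0.19, adjusted p = 0.00339). Its partner matriptase (ST14) rose from 109, 86.5 and 73.2 to 126, 135 and 137 CPM (log2 fold change 0.57 ± 0.13, adjusted p = 0.00972). STS, the steroid sulfatase that clears cholesterol sulfate from the barrier, rose from 112, 89 and 83 to 230, 291 and 186 counts (log2 fold change 1.19 ± 0.17, adjusted p = 0.00304). NIPAL4, a gene of ichthyosis, fell (log2 fold change -0.78 ± 0.12, adjusted p = 0.00339). ST14 and NIPAL4 were named after their values were seen.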

How the data were processed

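RNA-seq covered 3 WT and 3 MLST8-KO samples of HCC2814 cells, grouped from the sample labels, with poly(A)-selected libraries. Reads were cleaned by the authors, aligned with HISAT (genome GRCh38.p12) and assigned to genes with Bowtie2, and the authors compared the groups with DESeq2. The deposited table holds estimated counts, which are not normalized. They were rounded here, because 12.4% of them were not whole. It also holds FPKM values, scaled by the authors for length and depth and not used here, and TPM values deposited beside them, which served to compare levels between genes. A table of the authors' own fold changes and p-values was not used.

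The main test was edgeR's quasi-likelihood test (edgeR 4.0.16, R 4.3.3) after filterByExpr by group and TMM scaling, without pairing. P-values were adjusted by Benjamini-Hochberg over 12951 genes, with a threshold of 0.05. The SE was derived from the F statistic (absolute log2 fold change over its square root). CPM values are rounded counts scaled by TMM library size, and means carry the SD. Where nothing else is said, ± after a log2 fold change is 1 SE. The alternatives tried were DESeq2 1.42.0, limma 3.58.1 on TPM after adding 1 or 0.1 and taking log2, edgeR with upper quartile scaling or with size factors from DESeq2, edgeR unfiltered or with a minimum of 10 counts in all samples, a replicate block, each library left out, and a 2-fold change as well. The edgeR step was tested on simulated data in which 200 genes had a log2 fold change of 1 up or down. It recovered 87% of them, and 7.45% of its calls fell on unchanged genes, above the threshold of 0.05. Each gene was drawn independently there, so spread shared between genes, as in the SPRR genes, was not simulated. Changes under 2-fold, the size of most calls here, were not simulated either, so the 87% does not cover them. Each library counted as a sample, since the series describes independent experiments. No pair of a group agreed within sampling noise (chi-square per gene 6.71 to 25.2), so none was taken as a repeat deposit of another.

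The genes of the set, the other lists and the tests were chosen with earlier results of these data known. Values per library are given for genes of the set past the threshold with an absolute log2 fold change of at least 0.5 or a mean of at least 1000 counts, for the 5 with the highest mean TPM, and for others where the account turns on them. Of the other barrier genes, those past the threshold with an absolute log2 fold change of at least 1 and a mean of at least 50 counts were named. EPCAM, CDH1, PGLYRP4, KLK9, SERPINB8 and the S100 genes outside the set were named after their values were seen. Of 8 fibroblast markers, 2 had enough counts to be tested and neither passed the threshold by edgeR or DESeq2, with 1 higher at an unadjusted p under 0.05. Coordinates and coding sequences are from GENCODE (GRCh38), and promoters from RefSeq (GRCh38.p14). Sequences were aligned with Biopython 1.88, and figures drawn with matplotlib 3.10.9.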

Additional observations from a re-analysis of the deposited data

How the results depend on the processing

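The direction and the call of 9 of the 15 changed genes (PPL, KLK6, SERPINB13, PI3, ALOX12B, S100A8, S100A9, S100A14 and S100A16) held under every other scaling, filter, test, block and left-out library, up to 14 alternatives a gene, and 13 of 15 held where no library was left out. A 2-fold requirement is counted apart, and PPL, KLK6, S100A14 and S100A16 changed by less. SPRR2D and SPINK5 were lost with DESeq2. The genes of the set that rose numbered 2 to 5 and those that fell 8 to 14 as each library was left out, the lowest for rises without MLST8-KO 2. Asking for a 2-fold change as well left 2 that rose and 4 that fell, and in the other barrier genes 1 and 1. Those other genes numbered 3 to 11 higher and 6 to 11 lower with a library left out, and 10 higher with limma on log2(TPM + 0.1). Over all genes, a 2-fold change left 340 higher and 219 lower, leaving out a library gave 971 to 2692 higher and 850 to 2651 lower, and limma gave 1134 lower on log2(TPM + 1) and 1132 on log2(TPM + 0.1). The share of calls that were higher was 51.0% by edgeR, 71.0% and 70.9% on the TPM scales and 62.0% with upper quartile scaling. The median of all genes moved by 0.10 and 0.11 in the limma fits on TPM, which change both scale and test, and by 0.05 with upper quartile scaling. The median of the set stayed below that of all genes on each scale. With the replicate block, 4 genes of the set rose and 13 fell, SPRR1A (-0.57, adjusted p = 0.0483) and SPRR3 (-0.67, 0.0386) among them, and 2261 and 2157 of all genes. To look for pairing, each sample's deviations from its group mean in log2 CPM were correlated between groups over all genes tested. Same-numbered samples gave 0.097, 0.065 and 0.146, and differently numbered samples -0.122 to 0.031. Each sample thus correlated best with its own number, but weakly. The main test took the samples as unpaired, and these values do not settle whether the numbers pair them.

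Signs that turned belonged to genes that did not pass the test. SBSN was -0.17 and -0.26, CSTB 0.0173 and 0.0173, and CALML3 0.12 and 0.12 on log2(TPM + 1) and log2(TPM + 0.1), and SERPINB3 was 0.0402 on the latter. CALML3 was also 0.0502 with upper quartile scaling, 0.0009 with at least 10 counts in every sample and 0.011 with the replicate block. SERPINB5 was -0.0016 with DESeq2, -0.0005 with its size factors and -0.0008 without a filter. With a library left out, log2 fold changes ran from -0.13 to 0.55 for CNFN, -0.0923 to 0.37 for SBSN, -0.23 to 0.51 for SPRR1B, -0.37 to 0.48 for SPRR2A, -0.48 to 0.30 for SPRR2E, -0.21 to 0.33 for TGM3, -0.12 to 0.13 for CALML3, -0.0471 to 0.0555 for KLK10, -0.63 to 0.28 for SERPINB3 and -0.16 to 0.17 for SERPINB5. EVPL passed on log2(TPM + 1) (0.39, adjusted p = 0.0442), on log2(TPM + 0.1) (0.42, 0.0422) and with upper quartile scaling (0.36, 0.0462), and SFN without a filter (-0.30, adjusted p = 0.0495). ALOX12B could not be fitted where 10 counts were required in every sample. The cause of these shifts was not tested. The tested genes read from few counts included FLG, CNFN and ALOXE3, within 6 to 24 counts a library, and ALOX12B, at 3 to 33.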
